A study of Mus musculus with 8 samples.

Results

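The data described here are the transcript levels of 10 genes of the tumor necrosis factor (TNF) system in J774A.1 macrophages, taken from a table that lists 55487 genes, of which 11796 were tested. The 10 genes are the ligands Tnf and Tnfsf9, the receptors Tnfrsf1a, Tnfrsf1b, Cd40, Fas and Tnfrsf9, the adaptor Traf1, and the ubiquitin-related regulators Birc3 and Tnfaip3. They were picked by name, with their values in this same comparison already known. Their levels and differences are therefore given as a description, and no p-value is printed for any of the 10. Where they are sorted below by the thresholds used for all genes, that is also a description and not a test. All 10 passed the filter on low values, a mean over the 8 libraries of at least 1 TPM (transcript reads corrected for gene length and scaled per library).

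J774A.1 is an established mouse macrophage cell line. In 1 group of 4 libraries the cells received LPS, a component of the bacterial outer membrane that activates macrophages, and in the other group of 4 they received LPS together with ursodeoxycholic acid (UDCA), a bile acid. Treatment lasted 24 h, and the study's methods give LPS at 1 μg/mL and UDCA at 1 mM. LPS was thus common to all 8 libraries, so the comparison is of UDCA on top of LPS, and untreated cells were not analysed here. The labels do not say whether the libraries of a group came from separate cultures, so the p-values below measure only the spread between these libraries, which may be technical.

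TNF superfamily ligands are mostly trimeric proteins that are made at the cell surface and can in some cases be shed from it, and they bind receptors with related extracellular repeats. Receptors such as TNFR2, CD40 and 4-1BB recruit TRAF adaptors, while TNFR1 and Fas carry a cytoplasmic death domain that can recruit TRADD, FADD and RIPK1. Ubiquitin ligases such as cIAP1 and cIAP2 build chains on these complexes that lead to NF-κB, and A20, the product of Tnfaip3, edits or blocks such chains. In macrophages TNF is an early product of LPS signaling, and several of these genes are themselves induced by NF-κB.

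The unit of the values is not named and was inferred to be TPM. TPM divides reads by gene length and scales each library to a common total, and levels of different genes are compared here on that basis. TPM keeps no depth, so the number of reads behind each value is unknown. The deposited columns summed to between 973190.38 and 977485.17 TPM in the LPS libraries and between 958918.43 and 962736.95 TPM in the LPS + UDCA libraries. The column sums were thus close but not equal, and their ranges did not overlap between groups. No library pair was identical. The summed level of 12 macrophage markers lay between 4825.02 and 5116.13 TPM with LPS and between 2519.49 and 2840.44 TPM with LPS + UDCA. Of the 12, Adgre1 and Fcgr1 were called higher with UDCA, Cd68, Csf1r, Itgam and Lyz2 were called lower, and Mertk and Cd163 were at 0 in every library. Lck was the only 1 of 6 T and NK cell markers above 1 TPM, and the 6 summed to between 16.25 and 23.24 TPM with LPS and between 8.96 and 10.16 TPM with LPS + UDCA. The 5 B cell markers summed to at most 4.5 TPM, with Cd79b called lower, and the 7 fibroblast and epithelial markers to at most 0.17 TPM. The part of these shifts in the results below was not tested. In bulk RNA, fewer cells that express a gene and less RNA per cell cannot be told apart.

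Throughout, a gene was called when the fitted fold change between groups was at least 2 and the false discovery rate (FDR) was under 0.05. The fit used limma on log2(TPM + 1), a scale that understates the change of low genes. By these thresholds Cd40 and Birc3 were higher with LPS + UDCA, Tnf was lower, and the other 7 genes did not pass both. Of all genes tested, 17.1% passed both thresholds, 8.71% higher and 8.44% lower, and since the genes were picked on this contrast nothing is read from their count. By FDR alone 6 of the 10 were higher and 3 lower, where 72.5% of all genes passed, 40.2% higher and 32.3% lower. Nothing is read from that count either. The values of the 4 libraries did not overlap between groups in 9 of the 10 genes, 6 higher and 3 lower with UDCA, where 66.8% of all genes tested did not overlap, 37.0% higher and 29.9% lower. The median log2 difference was 0.37 over the 10 genes and 0.082 over all genes tested. Values after ± below are SDs over 4 libraries.

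**Figure D1:**
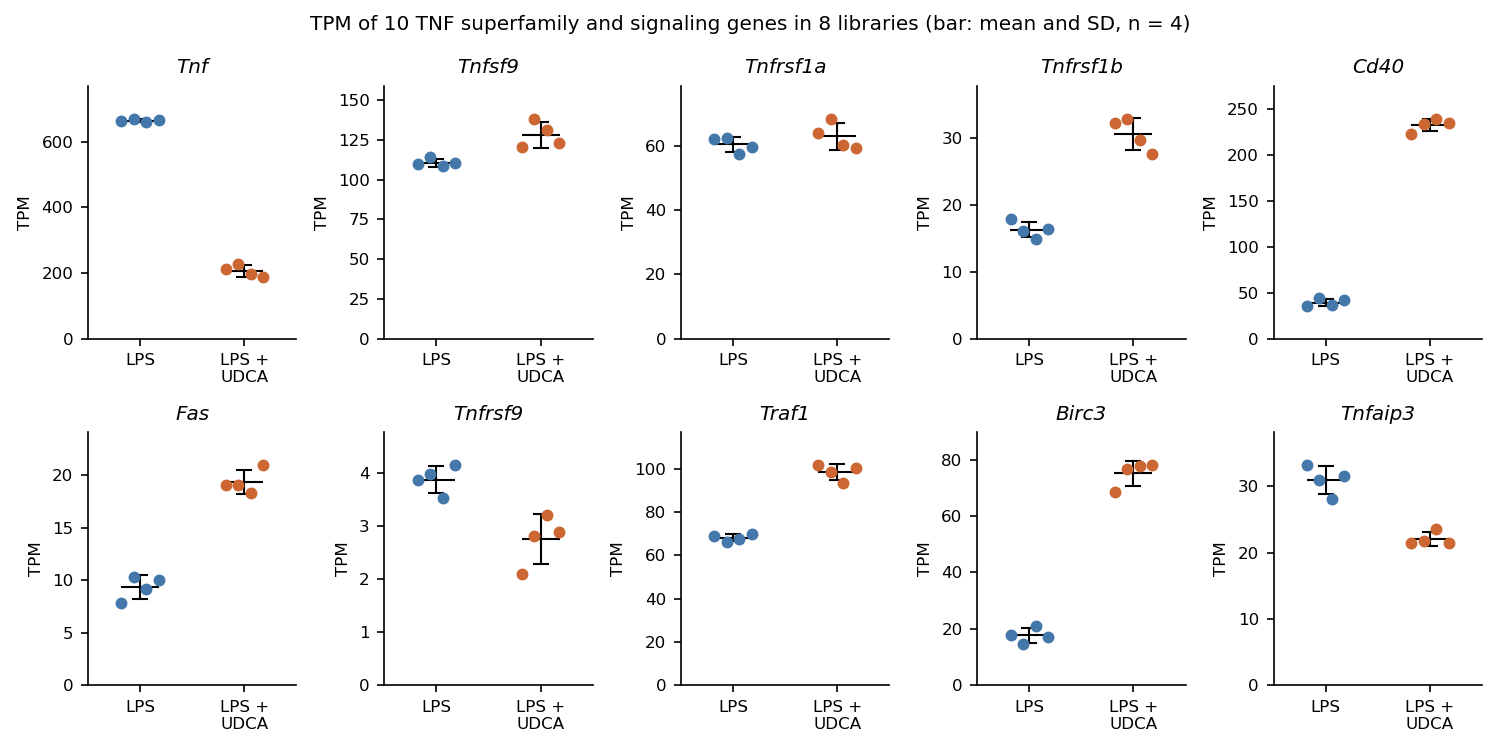
TPM of the 10 genes, each on its own linear axis from 0, in 4 libraries of cells given LPS and 4 of cells given LPS + UDCA, where points are libraries and bars the mean and SD. Cd40 and Birc3 stand well above their LPS levels with UDCA, Tnf stands below, and the points of Tnfrsf1a mix.

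Tnf encodes TNF-α, the founding ligand of the family, and lies at chr17:35199381-35202007 on the minus strand of GRCm38. It was the most abundant of the 10 genes in the LPS libraries, at 663.55, 669.54, 659.04 and 665.31 TPM in replicates 1 to 4. The LPS + UDCA libraries held 211.73, 226.40, 197.05 and 188.04 TPM. The lowest LPS library was therefore far above the highest library with UDCA, and the spread within LPS was narrow. The means were 664 ± 4.35 TPM and 206 ± 16.8 TPM (SD, n = 4 each), a 3.23-fold lower level with UDCA and a log2 difference of -1.69 (SE 0.053).

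The study's own RT-qPCR primers for TNF place that assay within the gene body. They are shown because they mark which stretch of the transcript that assay reads, and both matched the mouse Tnf transcript exactly in coding sequence, with a 175-base product between exons 3 and 4 of 4. The oligonucleotide listed as forward is antisense to the transcript and matched chr17:35200434-35200456 in exon 4, and the one listed as reverse is sense and matched chr17:35200878-35200902 in exon 3.
Primer listed as forward: tgggagtagacaaggtacaaccc
Primer listed as reverse: catcttctcaaaattcgagtgacaa

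Tnfsf9 encodes 4-1BB ligand, which costimulates T cells through the receptor 4-1BB, and lies at chr17:57105325-57107757 on the plus strand. Its levels were 109.75, 114.16, 108.38 and 110.18 TPM in the LPS libraries. With UDCA they were 120.49, 138.13, 131.10 and 122.95 TPM. Every library with UDCA was above every LPS library, but by a small margin. The means were 111 ± 2.48 and 128 ± 8.04 TPM (SD, n = 4 each), a ratio of 1.16 and a log2 difference of 0.21 (SE 0.047). Gm11110 is annotated on the opposite strand over Tnfsf9 and read between 8.18 and 10.65 TPM with LPS and between 15.15 and 19.21 TPM with UDCA. Reads of overlapping genes cannot be told apart without strand, and whether strand was used in counting is not given in the sources used here.

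The 2 ligands thus stood in a different proportion in the 2 groups. Tnf transcripts outnumbered those of Tnfsf9 between 5.86 and 6.08 times in the LPS libraries and between 1.5 and 1.76 times in those with UDCA. Of the summed TPM of 18 listed ligands, Tnf made up between 76.7% and 77.6% with LPS and between 56.4% and 60.0% with UDCA. Tnfsf9 made up between 12.7% and 13.1% with LPS and between 34.1% and 37.6% with UDCA.

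Besides the 2 ligands above, 16 other TNF superfamily ligands were listed, of which 4 passed the filter on low values and 12 stayed at or below 0.48 TPM in every library. None of the 4 was called higher and 1 was called lower, with a median log2 difference of -0.72 over them. By limma's FDR alone all 4 were lower, where 32.3% of all genes tested were. The gene called was Ltb, which encodes lymphotoxin β, the membrane-anchored partner of lymphotoxin α. Ltb fell from 61.4 ± 2.42 to 6.71 ± 0.822 TPM (SD, n = 4 each), 9.15-fold lower, with a log2 difference of -3.02 (SE 0.079, limma adjusted p = 4.4e-09). Lta, the gene of lymphotoxin α, measured 16.9 ± 0.492 and 10.8 ± 0.303 TPM (SD, n = 4 each), which passed the FDR and not the fold threshold, with a log2 difference of -0.60 (SE 0.051, limma adjusted p = 5.3e-06).

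The genes Ltb, Tnf and Lta are neighbors in 1 cluster on chromosome 17, with 3060 bases between Tnf and Ltb, 1157 bases between Tnf and Lta, and no other annotated gene between either pair. Their differences were of unequal size. Tnf transcripts outnumbered those of Ltb between 10.4 and 11.4 times with LPS and between 28.6 and 33.1 times with UDCA, and those of Lta between 38.0 and 40.3 times with LPS and between 16.8 and 21.2 times with UDCA. The sequences before the starts of Tnf and Ltb are shown because these adjacent ligand genes had the highest levels of the cluster with LPS and were both lower with UDCA. They are the 250 bases upstream of the RefSeq start on GRCm38.p6, at chr17:35202008-35202257 on the minus strand for Tnf and at chr17:35194257-35194506 on the plus strand for Ltb, written 5′ to 3′ with matches in capitals. The motifs searched on both strands were the NF-κB consensus of 10 letters, TGANTCA as read by AP-1, and TATAAA. In the Tnf window the capitals mark a TATAAA starting at position -29, and in the Ltb window an NF-κB consensus starting at -87, counted from the transcription start.
Tnf: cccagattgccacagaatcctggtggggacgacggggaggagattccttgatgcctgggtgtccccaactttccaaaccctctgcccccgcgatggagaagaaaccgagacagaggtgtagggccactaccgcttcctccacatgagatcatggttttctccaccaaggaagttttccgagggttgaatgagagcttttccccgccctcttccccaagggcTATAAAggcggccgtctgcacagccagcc
Ltb: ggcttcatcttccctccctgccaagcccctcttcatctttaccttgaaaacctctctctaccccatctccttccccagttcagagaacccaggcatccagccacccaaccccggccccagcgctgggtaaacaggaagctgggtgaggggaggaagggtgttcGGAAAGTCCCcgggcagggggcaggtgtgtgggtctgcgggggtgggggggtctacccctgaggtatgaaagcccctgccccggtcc
Windows of the same kind, 300 bases long with 50 bases after the start included, held the NF-κB consensus in 8.49% of 32544 mouse promoters, TGANTCA in 7.79% and TATAAA in 13.6%. A match is a description of the letters only.

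Of the receptors tested, Cd40 showed the widest difference on the log2 scale. CD40 is the receptor of CD40 ligand and is used by antigen-presenting cells to receive T cell help. The gene lies at chr2:165055627-165072948 on the plus strand. The LPS libraries held 35.32, 43.92, 35.99 and 41.49 TPM, and the LPS + UDCA libraries 222.90, 233.21, 239.06 and 234.70 TPM. The groups were far apart, and the 4 libraries with UDCA lay close together. Cd40 averaged 39.2 ± 4.2 and 232 ± 6.84 TPM (SD, n = 4 each), 5.93-fold higher with UDCA and a log2 difference of 2.54 (SE 0.07). The transcript of its ligand, Cd40lg, was listed at 0 in all 8 libraries.

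Tnfrsf1a encodes TNFR1, the widely expressed death domain receptor of TNF, and lies at chr6:125349362-125362484 on the plus strand. Its values were 62.23, 62.61, 57.65 and 59.67 TPM with LPS and 64.11, 68.42, 60.19 and 59.27 TPM with UDCA. It was the only gene of the 10 whose groups overlapped. The means were 60.5 ± 2.33 and 63.0 ± 4.18 TPM (SD, n = 4 each), a ratio of 1.04 and a log2 difference of 0.05 (SE 0.054), which was -0.02 under median-of-ratios scaling.

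Tnfrsf1b encodes TNFR2, which has no death domain and is found largely on immune cells, and lies at chr4:145213463-145246870 on the minus strand. The LPS libraries held 17.84, 16.17, 14.95 and 16.34 TPM, and those with UDCA 32.33, 32.90, 29.78 and 27.72 TPM. All 4 libraries with UDCA were above all 4 without it. The means of 16.3 ± 1.18 and 30.7 ± 2.4 TPM (SD, n = 4 each) gave a ratio of 1.88 and a log2 difference of 0.87 (SE 0.072), short of the fold threshold. The ratio of Tnfrsf1b to Tnfrsf1a accordingly lay between 0.258 and 0.287 with LPS and between 0.468 and 0.504 with UDCA. Of these 2 TNF receptor transcripts Tnfrsf1a was the more abundant in all 8 libraries. Tnf transcripts outnumbered those of Tnfrsf1a between 10.7 and 11.4 times with LPS and between 3.17 and 3.31 times with UDCA.

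Fas encodes the death receptor of Fas ligand and lies at chr19:34290666-34327772 on the plus strand. Its levels were 7.79, 10.33, 9.17 and 9.97 TPM with LPS and 19.08, 19.03, 18.27 and 20.92 TPM with UDCA. The groups did not overlap, and the lowest library with UDCA was well above the highest without it. The means were 9.31 ± 1.13 and 19.3 ± 1.13 TPM (SD, n = 4 each), a ratio of 2.07. On the log2(TPM + 1) scale the difference was 0.98 (SE 0.087), so Fas lay at the fold threshold, and leaving out LPS replicate 2, LPS replicate 4 or LPS + UDCA replicate 3 put it past that threshold, with the log2 difference between 0.91 and 1.03 over the 8 libraries left out in turn. It was also past the threshold with a pseudocount of 0.1, at 1.05, and with columns rescaled to the same sum, at 1.01. The ligand transcript, Fasl, was at 0.03 TPM in LPS replicate 1 and at 0 in the other 7 libraries.

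Tnfrsf9 encodes 4-1BB, the receptor of the Tnfsf9 product, and lies at chr4:150914562-150946102 on the plus strand. It was the least abundant of the 10, at 3.87, 3.98, 3.53 and 4.15 TPM with LPS and 2.10, 2.81, 3.22 and 2.89 TPM with UDCA. The groups were separate by a narrow margin. The means were 3.88 ± 0.262 and 2.76 ± 0.471 TPM (SD, n = 4 each), 1.41-fold lower with UDCA and a log2 difference of -0.39 (SE 0.11). Tnfrsf9 was thus lower while its ligand gene was higher, and Tnfsf9 transcripts outnumbered those of Tnfrsf9 between 26.5 and 30.7 times with LPS and between 40.7 and 57.4 times with UDCA. Camta1 is annotated over Tnfrsf9 on the opposite strand and read between 5.35 and 7.41 TPM with LPS and between 9.21 and 10.89 TPM with UDCA.

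**Figure D2:**
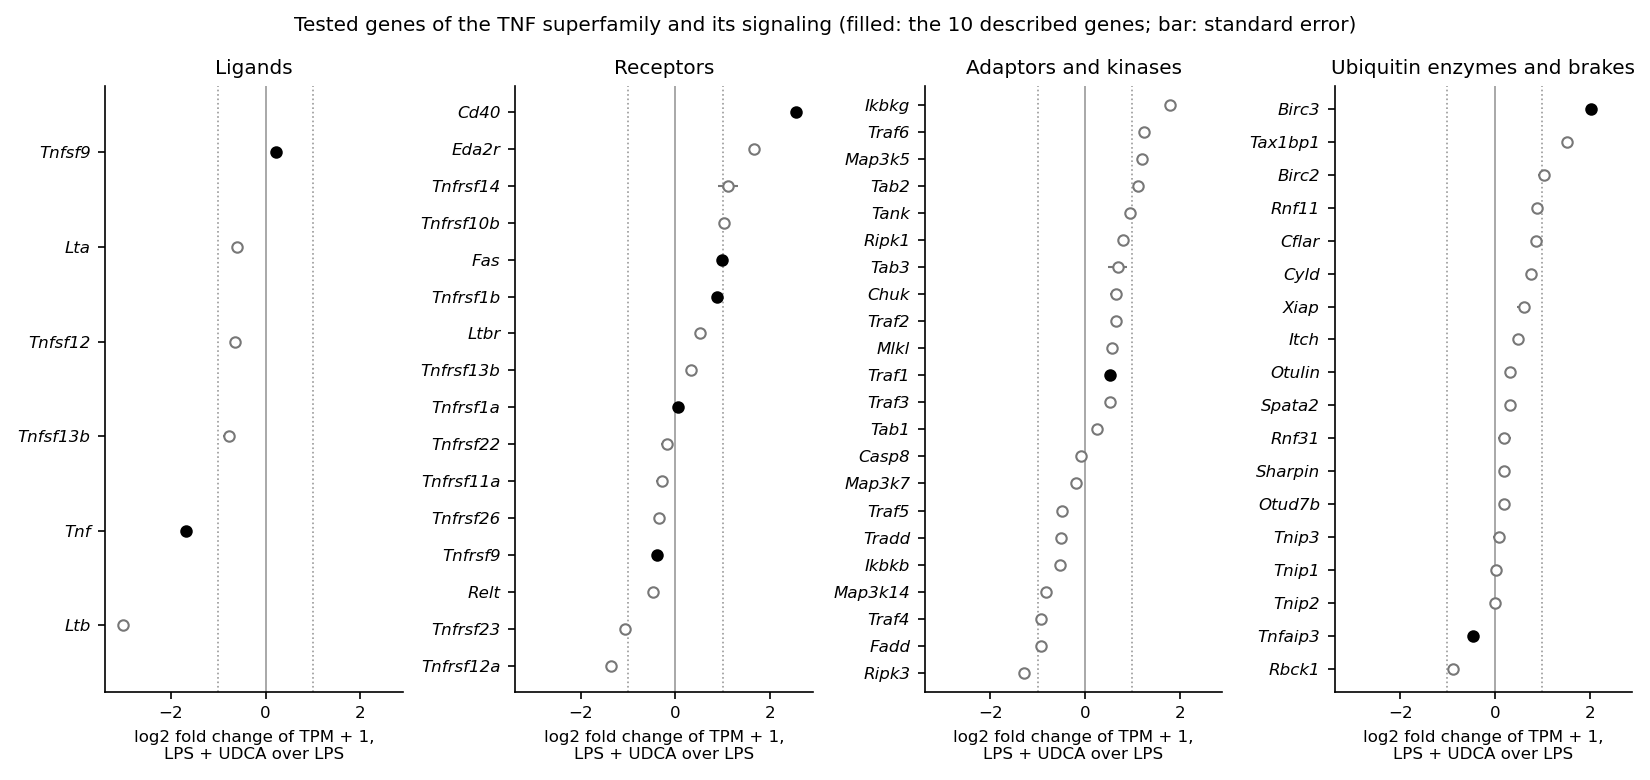
Log2 difference of LPS + UDCA against LPS on the log2(TPM + 1) scale for the 10 genes and other tested genes, grouped by role. The roles plotted are ligands, receptors, adaptors and kinases, and ubiquitin enzymes and brakes. Filled points are the 10 genes, bars the SE of the fit (n = 4 libraries per group) and dotted lines the 2-fold threshold. The 10 genes run from -1.69 for Tnf to 2.54 for Cd40, and Ltb is lowest of the plotted ligands at -3.02.

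The remaining receptors moved in both directions. Of 23 other receptors listed, 11 were tested, and 3 were called higher, 2 lower and 6 not called, with a median log2 difference of -0.18. Of all genes tested, 8.71% were called higher and 8.44% lower. By FDR alone 5 of the 11 were higher and 4 lower, where 40.2% of all genes tested were higher and 32.3% lower. The 12 that were not tested reached at most 2.31 TPM in any library. Among them Tnfrsf18 averaged 1.48 TPM with LPS and 0.155 TPM with UDCA, and Cd27 averaged 0.278 and 1.56 TPM. With no filter on low values, 3 other receptors were called higher and 3 lower. Eda2r, the receptor of ectodysplasin A2, rose from 8.88 ± 1.94 to 30.0 ± 1.26 TPM (log2 difference 1.67, limma adjusted p = 1.8e-06). Tnfrsf10b, the mouse TRAIL receptor, rose from 12.1 ± 1.25 to 25.6 ± 0.557 TPM (log2 difference 1.02, limma adjusted p = 1.6e-06). Tnfrsf14, which encodes the LIGHT receptor HVEM, rose from a low 0.815 ± 0.52 to 2.84 ± 0.631 TPM (log2 difference 1.11, limma adjusted p = 0.0014). It was at 0.25 TPM in LPS replicate 3, and was not tested when every library had to reach 1 TPM. Neither Tnfrsf14 nor Tnfrsf10b reached the fold threshold without LPS replicate 3, at log2 differences of 0.94 and 0.98. The call of Tnfrsf10b was also lost without LPS replicate 2, at 0.98, under median-of-ratios scaling, at 0.94, and under quantile normalization, at 0.96. Tnfrsf12a, the TWEAK receptor Fn14, fell from 24.0 ± 1.4 to 8.82 ± 0.86 TPM (log2 difference -1.35, limma adjusted p = 4e-07). Tnfrsf23, a decoy TRAIL receptor, fell from 52.0 ± 3.61 to 24.3 ± 1.33 TPM (log2 difference -1.07, limma adjusted p = 4.7e-07), and 28.5% of its 31-base words occur in transcripts of other genes such as Tnfrsf22, so its reads may have been split.

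Over the 28 listed receptors the summed level was 339 ± 8.67 TPM with LPS and 560 ± 9.05 TPM with UDCA, while the 18 ligands summed to 860 ± 8.64 and 355 ± 23.4 TPM (SD, n = 4 each). The ligand sum was between 2.49 and 2.62 times the receptor sum in the LPS libraries and between 0.59 and 0.677 times it in those with UDCA. Cd40 alone made up between 10.3% and 12.8% of receptor TPM with LPS and between 40.6% and 42.8% with UDCA, and the share of Tnfrsf1a went from between 17.4% and 18.2% to between 10.6% and 12.0%. These sums contain the genes that were picked on this contrast, so they describe the libraries and carry no test.

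**Figure D3:**
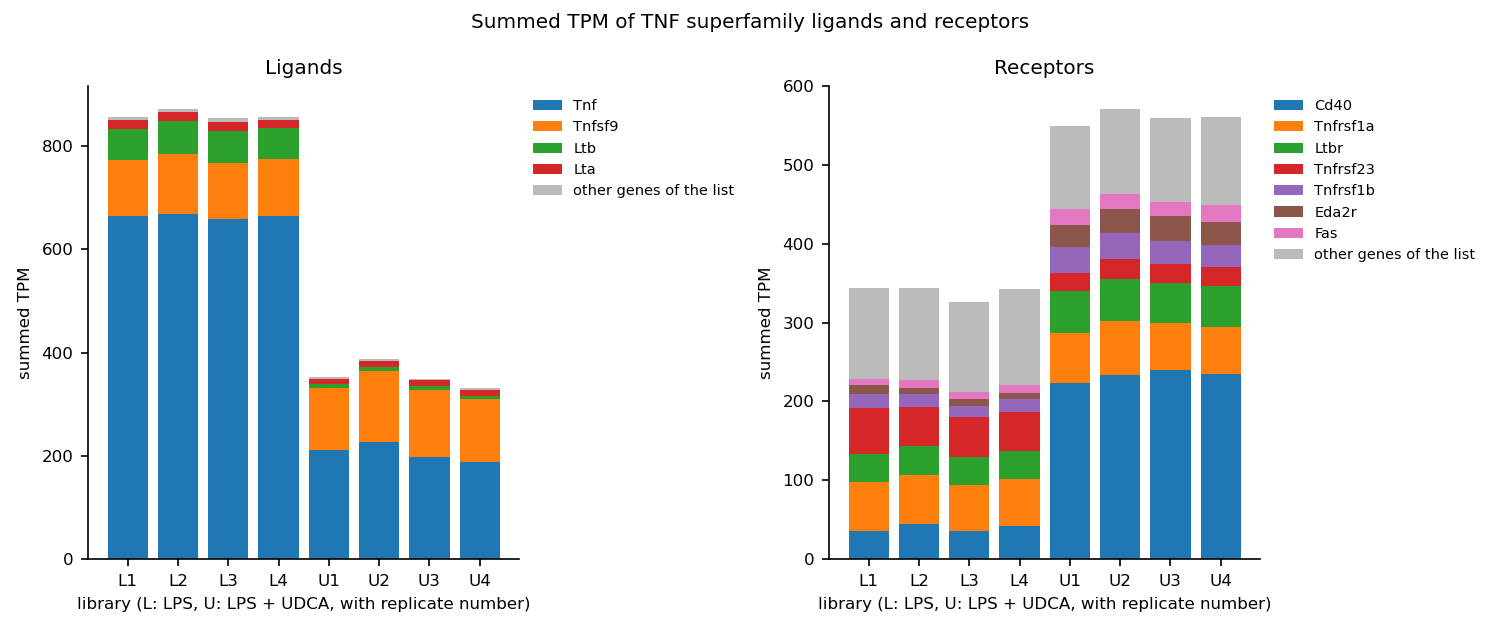
Summed TPM of the 18 listed ligands and the 28 listed receptors in each library, with stacked segments for 4 ligands and 7 receptors and gray for the rest of each list, and bars that start at 0. Ligand sums are 853.62 to 872.8 TPM with LPS and 331.07 to 387.05 TPM with UDCA, and receptor sums are 326.18 to 344.01 and 549.57 to 571.66 TPM.

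Downstream of the receptors, Traf1 encodes an adaptor that pairs with TRAF2 and binds cIAP proteins, and lies at chr2:34941750-34961772 on the minus strand. Its values were 68.79, 66.27, 67.36 and 69.94 TPM with LPS and 101.61, 98.39, 93.31 and 100.59 TPM with UDCA. The groups were well separated and each was tight. The means of 68.1 ± 1.61 and 98.5 ± 3.7 TPM (SD, n = 4 each) gave a ratio of 1.45 and a log2 difference of 0.53 (SE 0.039). The partner adaptor Traf2 measured 15.4 ± 0.823 and 24.7 ± 1.56 TPM, past the FDR and not the fold threshold (log2 difference 0.65, limma adjusted p = 1.2e-05). The ratio of Traf1 to Traf2 overlapped between groups, at 4.24 to 4.56 with LPS and 3.79 to 4.47 with UDCA.

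Of 21 other adaptors and kinases, all tested, 4 were called higher, 1 lower and 16 neither, with a median log2 difference of 0.53. By FDR alone 12 were higher and 8 lower, where 40.2% of all genes tested were higher and 32.3% lower. Ikbkg, which encodes the IκB kinase subunit NEMO, rose from 27.7 ± 0.775 to 98.8 ± 4.83 TPM (log2 difference 1.80, limma adjusted p = 3.7e-09). Ikbkg overlaps G6pdx on the opposite strand, and G6pdx read between 178.37 and 181.45 TPM with LPS and between 91.4 and 110.23 TPM with UDCA. Traf6, the adaptor shared by CD40 and Toll-like receptor signaling, rose from 4.25 ± 0.458 to 11.4 ± 0.73 TPM (log2 difference 1.24, limma adjusted p = 1.4e-06). The kinase ASK1 gene Map3k5 rose from 1.99 ± 0.372 to 5.91 ± 0.65 TPM (log2 difference 1.21, limma adjusted p = 1.3e-05), and Tab2, which encodes a ubiquitin-binding subunit of the TAK1 complex, rose from 12.6 ± 0.856 to 28.5 ± 1.93 TPM (log2 difference 1.12, limma adjusted p = 7.4e-07). Ripk3, the kinase of necroptosis, fell from 159 ± 2.6 to 64.2 ± 4.19 TPM (log2 difference -1.30, limma adjusted p = 4e-08).

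The 3 death domain partners of TNFR1 and Fas named above passed the FDR and not the fold threshold, in different directions. Tradd measured 26.0 ± 1.34 and 18 ± 1.63 TPM (log2 difference -0.51, limma adjusted p = 0.00016). Fadd measured 4.07 ± 0.389 and 1.64 ± 0.159 TPM (log2 difference -0.94, limma adjusted p = 2.3e-05), and its difference was past the fold threshold with a pseudocount of 0.1, at -1.26, and under quantile normalization, at -1.06. Ripk1 measured 10.5 ± 0.862 and 19.1 ± 1.3 TPM (log2 difference 0.81, limma adjusted p = 8.5e-06). It overlaps Serpinb6a on the opposite strand, which read between 106.04 and 117.97 TPM with LPS and between 184.33 and 187.56 TPM with UDCA.

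Birc3 encodes cIAP2, a ubiquitin ligase that binds TRAF proteins, and lies at chr9:7848699-7873186 on the minus strand. The LPS libraries held 17.81, 14.60, 20.79 and 17.19 TPM and the LPS + UDCA libraries 68.60, 76.64, 77.64 and 77.94 TPM. The groups were far apart, and LPS + UDCA replicate 1 lay below the other 3 of its group. The means were 17.6 ± 2.54 and 75.2 ± 4.44 TPM (SD, n = 4 each), 4.27-fold higher with UDCA and a log2 difference of 2.04 (SE 0.095). Of the 31-base words of Birc3, 11.6% also occur in transcripts of other genes. Its neighbor Birc2, which encodes cIAP1 and lies 11634 bases away with no annotated gene between them, rose from 4.52 ± 0.529 to 10.3 ± 1.36 TPM (log2 difference 1.03, limma adjusted p = 2.1e-05). The call of Birc2 was lost without LPS replicate 3, at 0.97, or without LPS + UDCA replicate 2, at 0.95, and also under median-of-ratios scaling, at 0.96, and quantile normalization, at 0.93. The ratio of Birc3 to Birc2 was 3.97 ± 0.985 with LPS and 7.4 ± 0.866 with UDCA (SD, n = 4 each), with no overlap between 3.16 to 5.32 and 6.33 to 8.45.

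Tnfaip3 encodes A20, a deubiquitinating and ubiquitin-binding brake on NF-κB, and lies at chr10:19000910-19015657 on the minus strand. It measured 33.15, 30.88, 28.09 and 31.52 TPM with LPS and 21.42, 21.73, 23.55 and 21.47 TPM with UDCA. All 4 libraries with UDCA were below all 4 LPS libraries. The means were 30.9 ± 2.11 and 22 ± 1.01 TPM (SD, n = 4 each), 1.4-fold lower with UDCA and a log2 difference of -0.47 (SE 0.06). Tnip1, which encodes the A20-binding protein ABIN1, measured 153 ± 6.38 and 155 ± 8.19 TPM (log2 difference 0.02, limma adjusted p = 0.75), and the sign of that difference flipped under median-of-ratios scaling and when any 1 of 3 libraries was left out.

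Of 16 other ubiquitin enzymes and brakes, all tested, 2 were called higher, none lower and 14 neither, with a median log2 difference of 0.32. By limma's FDR alone 9 were higher and 1 lower, where 40.2% of all genes tested were higher and 32.3% lower. Besides Birc2, the called gene was Tax1bp1, whose product is a partner of A20, which rose from 21.2 ± 2.34 to 62.9 ± 7.34 TPM (log2 difference 1.52, limma adjusted p = 1e-06). The 4 listed genes of TNF shedding, 3 of them tested, gave no call by both thresholds. Adam17, the TNF-releasing protease, and Rhbdf2, which helps it mature, were higher by limma's FDR alone, as were 40.2% of all genes tested. Their log2 differences were small, at 0.2 (limma adjusted p = 0.017) and 0.21 (limma adjusted p = 0.01). The other tested gene, Rhbdf1, was at -0.14 (limma adjusted p = 0.2). Of 7 other genes with symbols that start with Tnfaip, 5 were tested and 1 was called. That gene, Tnfaip8l1, is named for its likeness to Tnfaip8. It fell from 2.39 ± 0.164 to a low 0.213 ± 0.0602 TPM (log2 difference -1.48, limma adjusted p = 3.4e-06). The log2 difference was -3.01 with a pseudocount of 0.1, and the gene was not tested when every library had to reach 1 TPM.

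RefSeq promoter windows were found for 8 of the 10 genes, 10 windows in all. None was found for Tnfsf9 or for Cd40, so Cd40, which was called higher, was not searched. The NF-κB consensus occurred in 2 of the 10 windows, 1 of Tnfaip3 and 1 of Tnfrsf9, where 8.49% of all promoters held it, TGANTCA in 3 and TATAAA in 2. These 2 windows are shown because they hold the consensus matches, and neither gene passed the fold threshold. The windows of Tnf and Birc3, which passed both thresholds in opposite directions, held no consensus match. The Tnfaip3 window is chr10:19015411-19015660 on the minus strand, with NF-κB matches at -125 and -12, TGANTCA at -136 and TATAAA at -225, and the Tnfrsf9 window is chr4:150927749-150927998 on the plus strand, with 2 overlapping NF-κB matches at -43 and -42 and TGANTCA at -15. Capitals mark these matches.
Tnfaip3: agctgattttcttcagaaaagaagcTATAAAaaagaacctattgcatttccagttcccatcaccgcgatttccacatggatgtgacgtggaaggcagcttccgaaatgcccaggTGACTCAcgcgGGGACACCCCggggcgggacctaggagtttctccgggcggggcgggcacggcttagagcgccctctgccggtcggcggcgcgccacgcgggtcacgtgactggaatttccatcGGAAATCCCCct
Tnfrsf9: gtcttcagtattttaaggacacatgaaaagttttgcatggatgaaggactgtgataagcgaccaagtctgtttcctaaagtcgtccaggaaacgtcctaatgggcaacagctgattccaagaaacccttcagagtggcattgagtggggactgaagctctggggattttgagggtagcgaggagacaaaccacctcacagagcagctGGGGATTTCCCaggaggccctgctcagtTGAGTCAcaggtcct
The absence of a match says only that those letters are not in that window.

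The order of the levels also differed between groups. With LPS it ran from Tnf through Tnfsf9, Traf1, Tnfrsf1a, Cd40 and Tnfaip3 to Birc3, Tnfrsf1b, Fas and Tnfrsf9, and neighbors in that order did not overlap except Birc3 and Tnfrsf1b. With UDCA it ran from Cd40 and Tnf, which overlapped, through Tnfsf9, Traf1, Birc3, Tnfrsf1a, Tnfrsf1b, Tnfaip3 and Fas to Tnfrsf9, with no other overlap. The ratio of Cd40 to Tnfrsf1a went from between 0.568 and 0.701 to between 3.41 and 3.97. The coefficient of variation over the 4 libraries ranged from 0.655% for Tnf to 14.4% for Birc3 with LPS, and from 2.95% for Cd40 to 17.1% for Tnfrsf9 with UDCA.

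**Figure D4:**
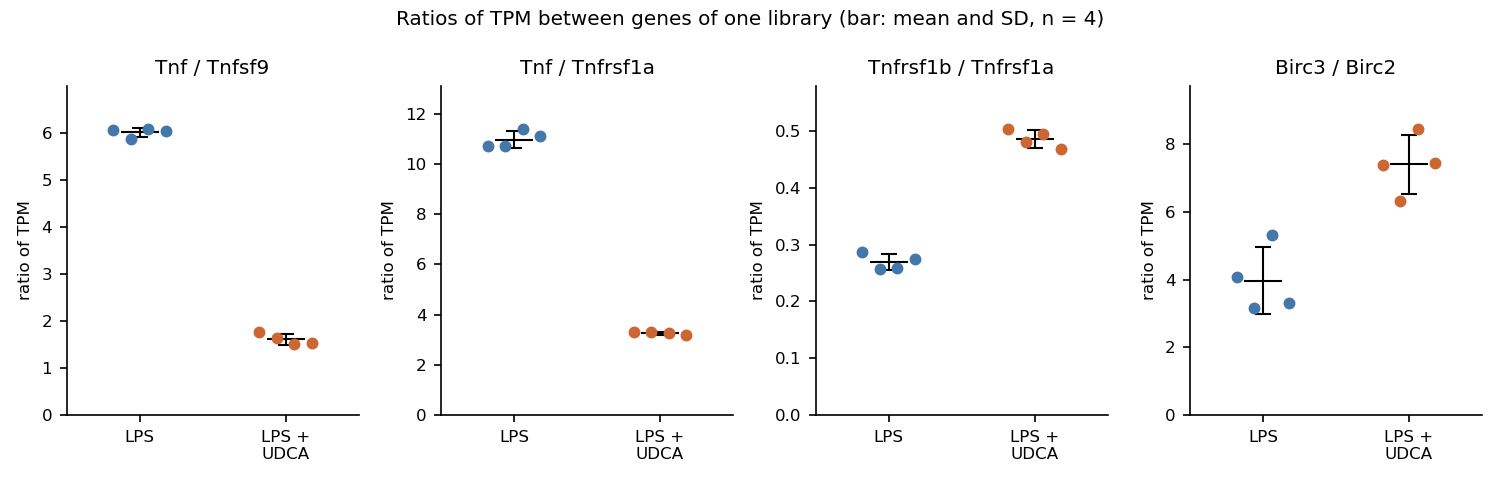
Ratios of TPM within each library for 4 pairs of genes, with 4 points for LPS and 4 for LPS + UDCA, bars for the mean and SD, and axes from 0. Tnf to Tnfsf9 is 6.01 ± 0.0998 with LPS and 1.61 ± 0.118 with UDCA, and Tnfrsf1b to Tnfrsf1a is 0.269 ± 0.0138 and 0.487 ± 0.0158 (SD, n = 4 each).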

How the data were processed

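RNA was sequenced from 8 libraries of J774A.1 cells, 4 per group, grouped by the treatment in the labels. The authors deposited 1 table of TPM per gene. The unit is not named in the file and was inferred from the values, which were never negative and gave nearly equal column sums. The submitters' processing notes name mm10, GRCm38 and Bowtie 0.12.2, and the counting program is not given in the sources used here.

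Genes averaging 1 TPM or more, 11796 in number, were fitted on log2(TPM + 1) with limma 3.58.1 in R 4.3.3 (lmFit, and eBayes with a trend), with Benjamini-Hochberg adjustment over all of them. The procedure was run on simulated data with known changes. Those changes were all larger than the fold threshold and lay in well-expressed genes. The run therefore does not check calls near the threshold or in low genes. Tables and figures were made with Python 3.11.15, pandas 2.3.3 and matplotlib 3.10.9. The genes and lists were chosen with earlier results of these data known. Most pathway genes outside the 10 were named as fixed partners of them or as the highest and lowest called genes of each list, at most 4 in each direction. Tnfrsf18, Cd27 and the genes of TNF shedding were named outside that rule, with their values known. Positions are from GENCODE M21 on GRCm38. Alternatives covered the filter, pseudocount, scaling, variance model, replicate block, thresholds and leaving out each library.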

Additional observations from a re-analysis of the deposited data

Results flagged for a closer look

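In 6 of 78 groups of 4 libraries examined, 1 library stood apart from the other 3 by Dixon's ratio, the gap to the nearest library divided by the whole range. For independent groups chance alone gives about 1 in 20, or 3.9 of 78. That number is only a rough guide here. Cd40lg, at 0 in every library, could not pass, and the sums and ratios reuse genes that were also examined singly. Birc3 was at 68.6 TPM in LPS + UDCA replicate 1, where the nearest library held 76.6 TPM (ratio 0.861). Tnfaip3 was at 23.6 TPM in LPS + UDCA replicate 3, where the nearest held 21.7 TPM (ratio 0.854). Traf6 was at 3.57 TPM in LPS replicate 3, where the nearest held 4.42 TPM (ratio 0.842), and Tnfrsf23 was at 57.4 TPM in LPS replicate 1, where the nearest held 50.3 TPM (ratio 0.957). Fasl was at 0.03 TPM in LPS replicate 1 and at 0 in the other LPS libraries, which fixes the ratio at 1.0. The summed receptor level was 326 TPM in LPS replicate 3, where the nearest library held 342 TPM (ratio 0.908).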

How the results depend on the processing

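With FDR alone and no fold minimum, 4741 genes were higher and 3807 lower over all genes, 6 and 3 of the 10, 4 other ligands lower, 5 and 4 other receptors, 12 and 8 other adaptors and kinases, and 9 and 1 ubiquitin enzymes and brakes. With a pseudocount of 0.1, 2 other ligands and 3 other adaptors were called lower. Median-of-ratios scaling gave 2 adaptors lower and 1 ubiquitin gene higher, and quantile normalization 3 and 1. Tnfrsf1a turned to -0.02 and Tnip1 to -0.06 under median-of-ratios scaling, and Tnip1 to -0.003 without LPS replicate 3, -0.004 without LPS + UDCA replicate 1 and -0.005 without LPS + UDCA replicate 2, within a range of -0.005 to 0.05 over the libraries left out. The cause was not tested. Leaving out each library, calls over all genes ranged from 959 to 1122 higher and 972 to 1033 lower, of the 10 from 2 to 3 higher, of other receptors from 1 to 3 higher (1 without LPS replicate 3), and of ubiquitin genes from 1 to 2 higher (1 without LPS replicate 3 or LPS + UDCA replicate 2). Counts over all genes were 1444 and 1232 with a pseudocount of 0.1, 857 and 1121 under median-of-ratios scaling, and 763 and 788 when every library had to reach 1 TPM. Over the alternatives run, the median over the 10 stayed between 0.29 and 0.44 and the median over all genes between 0.01 and 0.1.

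The replicate numbers of the labels were tried as a replicate block. Same-numbered libraries correlated at -0.0354 to 0.146 and other pairs at -0.145 to 0.162. Of the libraries, 5 of 8 correlated best with their own number, more than random matching would give on average. These values do not settle whether the numbers pair the samples. The labels state no pairing, so the main fit used no block. The block gave 1034 genes higher and 1000 lower, and the counts of the 10 and of each list were the same as without it. TPM keeps no depth, so counting error could not be computed.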
